A study of Mus musculus and Rattus norvegicus with 96 samples.

Results

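The 10 genes described here carry out the central steps of bile acid handling in the liver. They are Cyp7a1, Cyp8b1, Cyp7b1 and Cyp27a1 (synthesis from cholesterol), Slc27a5 and Baat (conjugation), Slc10a1 and Abcb11 (uptake and export), and Nr1h4 and Nr0b2 (regulation). They were chosen by name and by no rule on their values, though with earlier results of these data known. All 10 were among the 24543 genes of the mouse liver count table and among the 13370 genes tested. RNA was sequenced from the livers of 12 young adult male B6C3F1 mice, of which 6 received phenobarbital (PB) at 600 ppm in the drinking water for 7 days and 6 received vehicle, water (Con). Each liver gave 4 preparations and so 48 libraries. FR was kept frozen, FR>OH was a portion of the frozen piece that was later fixed in ethanol and paraffin-embedded, and FR>FFPE was a portion of the frozen piece that was later fixed in neutral buffered formalin and embedded. FFPE was a separate piece that went fresh into formalin before embedding. The frozen and the fixed tissue both held parts of the left lateral, caudate and right medial lobes. RNA of FR was extracted with a phenol-based reagent and RNA of the embedded tissue with a kit for fixed tissue, so that embedding and extraction cannot be told apart.

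Bile acids are made from cholesterol in hepatocytes. Cyp7a1 catalyses the first and rate-limiting step of the classic route, and Cyp8b1, the sterol 12-alpha-hydroxylase, sets how much cholic acid is made. Cyp27a1 and Cyp7b1 belong to the alternative route. Slc27a5 activates bile acids with coenzyme A and Baat then joins them to taurine or glycine. Slc10a1 (NTCP) takes conjugated bile acids up from blood, and Abcb11 (BSEP) pumps them into bile. Nr1h4 (FXR) is the nuclear receptor that senses bile acids. In textbook accounts it induces Nr0b2 (SHP), which lowers Cyp7a1 and Cyp8b1, and it induces Abcb11 directly. PB activates the receptor CAR and induces many genes of drug metabolism in mouse liver. On GRCm38, the build of the files, the synthesis genes lie at chr4:6265612-6275631 (Cyp7a1, minus strand), chr9:121914356-121916305 (Cyp8b1, minus), chr3:18071950-18243338 (Cyp7b1, minus) and chr1:74713535-74737897 (Cyp27a1, plus). The conjugation genes lie at chr7:12988346-12998192 (Slc27a5, minus) and chr4:49489418-49506558 (Baat, minus), and the carriers at chr12:80953185-80968079 (Slc10a1, minus) and chr2:69238282-69342616 (Abcb11, minus). The regulators lie at chr10:89454234-89533622 (Nr1h4, minus) and chr4:133553376-133556686 (Nr0b2, plus). Counts were taken over each whole gene's transcripts.

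Promoter sequence is shown for Abcb11, Nr0b2 and Cyp8b1, since these are the members whose reference promoter held letters of a regulatory element of the bile acid pathway that was searched for. Sequences came from RefSeq on GRCm38.p6 and end at the base before the transcript start. In Abcb11 the capitals mark an inverted repeat, AGGNCA and TGACCT with 1 base between them, the element type bound by FXR with its partner RXR. In Nr0b2 and Cyp8b1 the first capitals mark CAAGGNCA, the site type of Nr5a2 (LRH-1), and the second mark the TATA box TATAAA.
Abcb11, chr2:69342617-69342716, minus strand: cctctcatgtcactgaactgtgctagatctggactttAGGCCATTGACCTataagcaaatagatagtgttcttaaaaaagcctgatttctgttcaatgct
Nr0b2, chr4:133553156-133553375, plus strand: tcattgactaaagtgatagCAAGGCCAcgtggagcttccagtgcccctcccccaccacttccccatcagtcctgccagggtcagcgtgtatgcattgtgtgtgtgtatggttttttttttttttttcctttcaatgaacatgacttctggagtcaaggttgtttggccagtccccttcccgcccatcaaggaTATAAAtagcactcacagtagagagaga
Cyp8b1, chr9:121916306-121916405, minus strand: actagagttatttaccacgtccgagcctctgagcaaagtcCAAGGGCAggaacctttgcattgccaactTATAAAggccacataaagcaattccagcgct
The repeat in Abcb11 lay 63 to 51 bases before the start. The CAAGGNCA letters lay 201 to 194 bases before the start in Nr0b2 and 60 to 53 bases before it in Cyp8b1, and their TATAAA letters lay 28 to 23 and 31 to 26 bases before the start. No marked stretch overlapped another. Both strands were searched from 250 bases before to 50 bases after each start. Over all 32851 promoters of that length, the inverted repeat was found in 12 (0.0365%), CAAGGNCA in 6.71% and TATAAA in 13.6%. These matches describe letters, and binding was not measured. The table held 6 of the 10 members. Of the others in it, Slc10a1 had TATAAA on the opposite strand 128 to 123 bases before one of its starts, and Cyp27a1 and Nr1h4 held none of these letters. Cyp7a1, Cyp7b1, Baat and Slc27a5 had no entry.

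Depth and quality of the libraries moved with the preparation. Reads counted on genes came to between 11737338 and 13702672 in FR, 8167321 and 11539022 in FR>OH, 5534973 and 10681783 in FR>FFPE, and 4952797 and 6760422 in FFPE. The total reads of a library were back-calculated as the divisor that links its counts to the deposited normalized values. Whether that total counts reads, read pairs or alignments is not known. Counts on genes were 46.6% to 51.8% of it in FR and 21.4% to 27.5% in FFPE. The treatment labels were checked with Cyp2b10, the PB-induced cytochrome P450, which was at 0 to 2.45 CPM (the count scaled to a common library total) in the 24 Con libraries and at 1080 to 2290 CPM in the 24 PB libraries. The ribosomal RNA row Rn45s was at 4206 to 13060 CPM in FR and at 81270 to 127600 CPM in FFPE. It thus took a larger part of the total that scales the other genes in FFPE. Its part in their differences was not tested. Hepatocyte markers were abundant in every library, and no marker of hepatocytes, cholangiocytes, Kupffer, endothelial or stellate cells was at 0 throughout a group.

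The synthesis and conjugation genes were not equally abundant. Levels between genes are given as CPM per kilobase of transcript in the 12 FR libraries, as mean ± SD. Cyp7b1 was at 363 ± 71.6 (n = 12), Slc27a5 at 326 ± 31.8 (n = 12) and Slc10a1 at 278 ± 60.8 (n = 12). These neighbours in the order lay within their spread of each other. Abcb11 (188 ± 12.3, n = 12), Cyp8b1 (186 ± 49.9, n = 12) and Cyp27a1 (186 ± 15.9, n = 12) were close together, and Baat followed at 120 ± 13.3 (n = 12). Both regulators were lower, with Nr1h4 at 49 ± 5.69 (n = 12) and Nr0b2 at 28.1 ± 12.1 (n = 12). Cyp7a1 was the least abundant of the 10, at 9.78 ± 4.09 (n = 12), with mice between 3.09 and 17.1. Cyp7a1 and Nr0b2 therefore rested on the fewest counts, and the Cyp7a1 count was 65 to 923 per library over all 48.

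**Figure D1:**
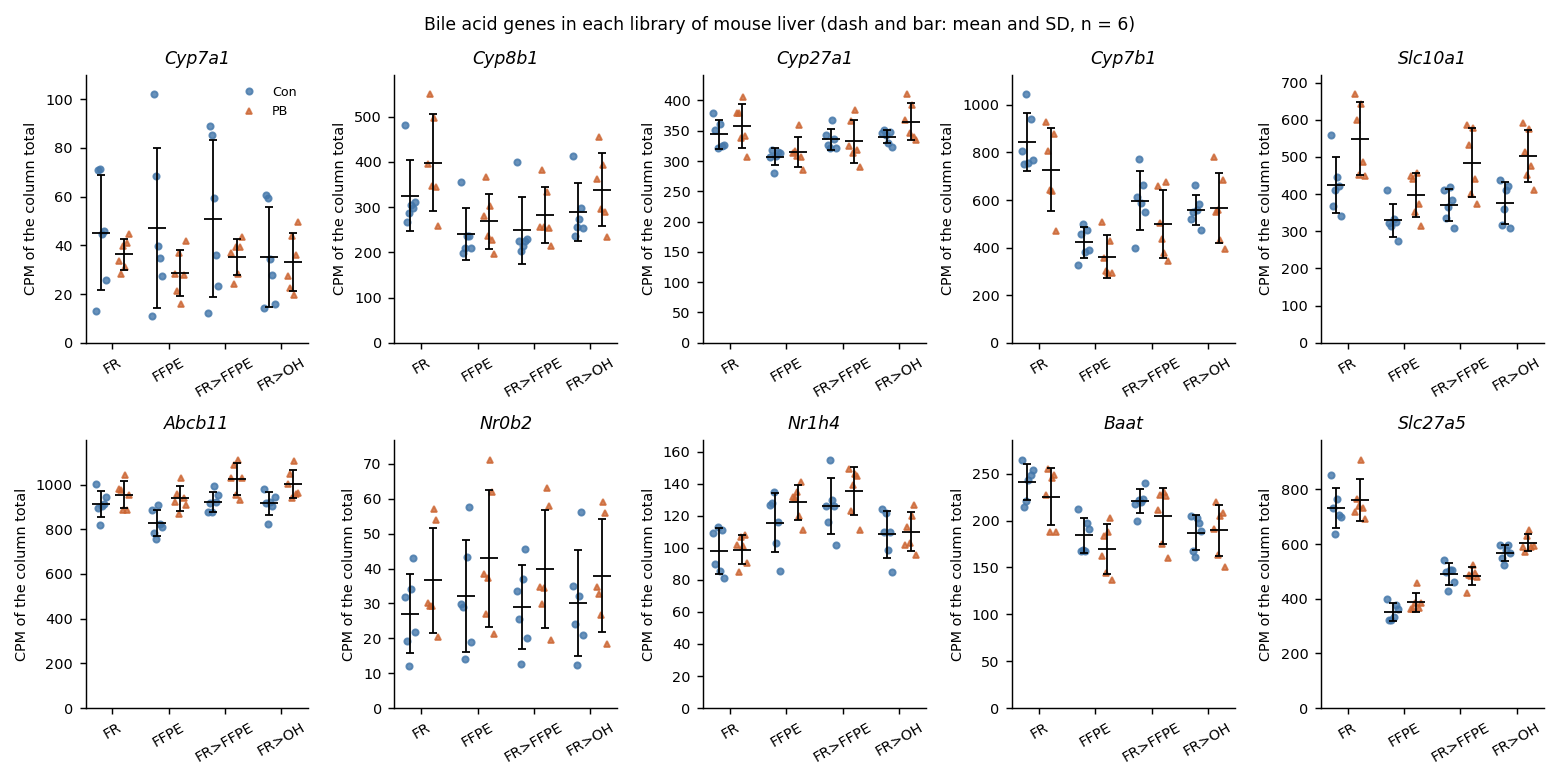
CPM of each of the 10 genes in every library (vertical axis from 0, points are mice, n = 6 per group), with the 4 preparations along the horizontal axis and Con beside PB. Slc27a5 and Cyp7b1 were lower in the embedded preparations than in FR, while Cyp7a1 and Nr0b2 spread widely between mice within every group.

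The response to PB was asked within each preparation. Of the 10 genes, none passed the test (edgeR, Benjamini-Hochberg adjusted p under 0.05) in FR, FFPE or FR>FFPE, and Slc10a1 alone passed in FR>OH. Over all genes tested, 8.45% passed in FR, 12.2% in FR>OH, 7.23% in FR>FFPE and 6.63% in FFPE, so that 1 call in 40 tests was under these shares. At an unadjusted p under 0.05, Slc10a1 was counted in each preparation, and Abcb11 in all but FR. That looser threshold was met by 2805 (FR), 3361 (FR>OH), 2513 (FR>FFPE) and 2567 (FFPE) of the 13370 genes tested. Such calls were thus common among all genes. DESeq2 called Slc10a1 in FR and FR>OH and Abcb11 in FFPE. The 4 comparisons used the same 12 mice and are not independent of each other. The Con and PB ranges of CPM overlapped for every one of the 10 genes in every preparation, whereas they did not overlap for 5.42% of all genes in both FR and FR>OH, 3.65% in FR>FFPE and 2.84% in FFPE.

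Slc10a1, the uptake carrier, had the most regular difference. In FR it was at 340 CPM (lowest), 416 CPM (median) and 559 CPM (highest) in Con mice, and at 449, 542 and 668 CPM in PB mice. In FR>OH the values were 310, 385 and 438 CPM in Con and 411, 495 and 590 CPM in PB. PB mice were mostly the higher group, with an overlap between them and the highest Con mice. In FR>OH Slc10a1 rose by 0.42 ± 0.13 (log2 fold change ± SE, n = 6 and 6, adjusted p = 0.0237). The difference was 0.37 in FR (adjusted p = 0.0603), 0.39 in FR>FFPE (adjusted p = 0.0544) and 0.27 in FFPE (adjusted p = 0.24). With TMM scaling the FR difference also passed (0.37, adjusted p = 0.0271). The FR>OH call was lost when the L number of the library label, which the labels do not define and which 9 or 10 libraries share, was a term or when the libraries of L number 5 alone were used (0.40, adjusted p = 0.224 in both), and when any of the mice 18B, 20D, 82B, 8A or 90C was left out (adjusted p = 0.0585, 0.0556, 0.0773, 0.0642 and 0.0623). Fewer hepatocytes and less RNA per hepatocyte cannot be told apart in such bulk tissue. Summed CPM of the hepatocyte markers Alb, Apoa1, Ttr, Tat, G6pc and Serpina1a was 56762 to 86946 in FR Con and 40396 to 73524 in FR PB. That of the periportal markers was 2355 to 4060 in FR Con and 1537 to 2202 in FR PB, without overlap, though only Pck1 of the 6 passed as lower. That of the pericentral markers was 5057 to 7782 in FR Con and 6079 to 8054 in FR PB, with 1 of 6 higher (Cyp1a2) and 2 lower. Their part in the Slc10a1 difference was not tested.

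Cyp7a1, the rate-limiting enzyme, had the largest errors of the 10 genes in the PB comparison. In FR it was at 12.9 CPM (lowest), 45.2 CPM (median) and 71.3 CPM (highest) in Con mice, and at 28.1, 36.6 and 44.8 CPM in PB mice. In FFPE it was at 10.8, 37.3 and 102 CPM in Con and at 15.9, 28.1 and 41.7 CPM in PB. All PB mice lay inside the Con range. The fitted differences were -0.31 ± 0.39 in FR (log2 ± SE, adjusted p = 0.711) and -0.72 ± 0.41 in FFPE (adjusted p = 0.349). Portions of the frozen piece gave -0.54 ± 0.40 after formalin (FR>FFPE, adjusted p = 0.517) and -0.09 ± 0.40 after ethanol (FR>OH, adjusted p = 0.922). Each group held 6 mice, and the spread behind these errors was estimated over all 48 libraries.

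The other synthesis genes did not pass in any preparation. Cyp8b1 was at 267, 302 and 482 CPM (lowest, median and highest) in FR Con and at 258, 371 and 549 CPM in FR PB. Its PB difference in FR was 0.29 ± 0.19 (log2 ± SE, adjusted p = 0.386), with 0.16, 0.18 and 0.23 in FFPE, FR>FFPE and FR>OH. Cyp7b1 was at 751, 788 and 1044 CPM in FR Con and at 470, 726 and 927 CPM in FR PB. The 2 groups overlapped for both genes, and the Cyp7b1 difference in FR was -0.21 ± 0.17 (adjusted p = 0.517). The PB difference of Cyp27a1 was at most 0.10 in any preparation (FR>OH, adjusted p = 0.365).

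The conjugation genes had small errors. The PB difference of Slc27a5 in FR was 0.05 ± 0.07 (log2 ± SE, adjusted p = 0.746) and that of Baat was -0.10 ± 0.10 (adjusted p = 0.644). Their largest differences in the other preparations were 0.13 for Slc27a5 in FFPE (adjusted p = 0.344) and -0.12 for Baat in FFPE (adjusted p = 0.572). Abcb11, the export pump, was at 820, 908 and 1001 CPM (lowest, median and highest) in FR Con and at 884, 964 and 1042 CPM in FR PB. In FFPE it was at 757, 816 and 908 CPM in Con and at 867, 932 and 1029 CPM in PB. The FFPE groups overlapped only between 867 and 908 CPM. The fitted difference was 0.06 ± 0.07 in FR (adjusted p = 0.636) and 0.18 ± 0.07 in FFPE (adjusted p = 0.0851), and the FFPE difference passed in DESeq2 (0.17, adjusted p = 0.00851).

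Neither regulator passed the test for PB. Nr1h4 (FXR) was at 81, 99.5 and 113 CPM (lowest, median and highest) in FR Con and at 85, 102 and 108 CPM in FR PB, a difference of 0.01 ± 0.10 (log2 ± SE, adjusted p = 0.965). Nr0b2 (SHP) was at 12.2, 26.8 and 43.1 CPM in FR Con and at 20.3, 29.7 and 57.2 CPM in FR PB. The Nr0b2 groups overlapped over most of their range, and the fitted difference of 0.44 ± 0.35 did not pass (adjusted p = 0.511).

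**Figure D2:**
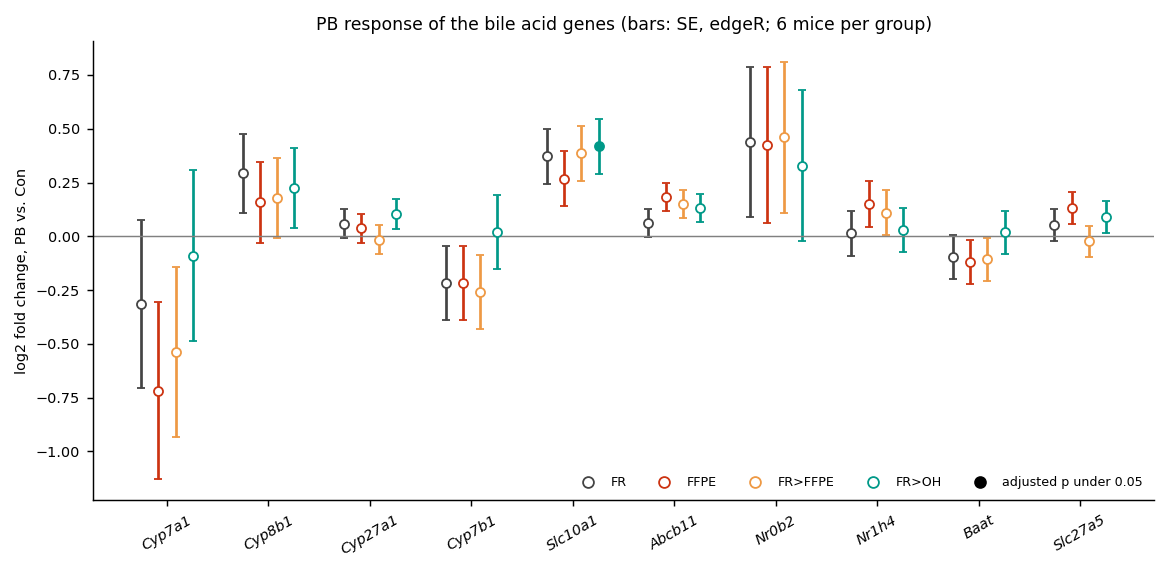
Log2 fold change of PB vs. Con (vertical axis, bars are SE) of each of the 10 genes in the 4 preparations. Slc10a1 lay between 0.27 and 0.42 in all 4 preparations and passed the test in FR>OH, while the bars of Cyp7a1 and Nr0b2 were the widest.

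Whether the PB response of a gene differed between preparations was tested as an interaction. None of the 10 genes passed against FR in FFPE, FR>FFPE or FR>OH in edgeR, nor did any under DESeq2, under limma on the deposited log2 values or with the mouse as a block. Over all genes tested, 0 passed in edgeR, with 463, 288 and 305 at an unadjusted p under 0.05. For Slc10a1 the response in FR>OH differed from that in FR by 0.05 ± 0.18 (log2 ± SE), although only the first passed the test on its own. For Cyp7a1 the response in FFPE differed from that in FR by -0.41 ± 0.57 (adjusted p = 1). With the mouse as a block it differed by -0.38 ± 0.15 (unadjusted p = 0.0135, adjusted p = 0.499), which did not pass.

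Other bile acid genes did respond to PB. Of a list of 40 genes of bile acid synthesis, transport, regulation and conversion, 34 were tested. In FR 7 rose and 2 fell, where 5.86% of all genes rose and 2.6% fell, and with TMM scaling 7 rose and 4 fell. In FFPE 7 rose and 3 fell (background 4.64% and 1.98%), and in FR>FFPE 7 rose and 0 fell (6.24% and 0.987%), against 7 and 4 with TMM scaling. In FR>OH 9 rose and 3 fell (8.43% and 3.77%), against 11 and 1 with total reads as library size. The same 5 genes passed with at least a 2-fold change in each preparation, where 2%, 1.92%, 1.87% and 2.42% of all genes did so. They were Abcc3 (MRP3), which exports conjugates into blood and rose by 3.26 ± 0.39 in FR (log2 ± SE, adjusted p = 2.72e-08), Slco1a4, an organic anion uptake carrier, which rose by 1.58 ± 0.24 (adjusted p = 7.09e-06), and Akr1d1, the steroid 5-beta-reductase of bile acid synthesis, which rose by 1.23 ± 0.16 (adjusted p = 2.25e-07). The others were Cyp3a11, a drug and bile acid hydroxylase, and Ugt1a1, the bilirubin glucuronosyltransferase, which rose by 5.86 ± 0.51 (adjusted p = 2.9e-12) and 1.63 ± 0.12 (adjusted p = 3.92e-14). All are rises relative to other genes, since the median over all genes moved by no more than 0.06 with PB. Fgf15, the intestinal hormone, was at 0 in all 48 libraries.

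The preparations were then compared with FR over all 12 mice. In FFPE vs. FR, 6 of the 10 genes were lower and Nr1h4 was higher (edgeR, adjusted p under 0.05), though Nr1h4 reversed with total reads as library size. Of all genes 70.3% passed with the total on genes as library size, 53% as higher and 17.3% as lower. In FR>FFPE vs. FR, 3 were lower and Nr1h4 was higher, where 65.4% of all genes passed, 56.5% as higher and 8.92% as lower. In FR>OH vs. FR, 3 were lower and 0 higher, where 54.9% passed, 41.7% as higher and 13.3% as lower. With TMM scaling 7 were lower and 0 higher in each of the 3, and with total reads 10, 7 and 8 were lower and 0 higher. The call in FFPE did not rest on either treatment, since 7 genes passed among Con mice alone, where 57.5% of all genes passed, and 7 among PB mice alone, where 60.2% did. Over all genes the TMM-scaled shares that passed were 65.4%, 52.3% and 51.2%, of which 31.3%, 25.2% and 26% were lower, and with total reads 70.7%, 29.3% and 37.6% of all genes were lower. Whether the share of the 10 genes that passed in either direction lay above or below that of all genes thus depended on the library size. The share that passed as lower was above that of all genes in each comparison and under each library size. These 3 comparisons share the FR libraries. With the total on genes as library size the median log2 difference of all genes was 0.18 after ethanol (FR>OH), 0.34 after formalin of the frozen piece (FR>FFPE) and 0.32 in FFPE, so each value is also read relative to it. All 10 genes lay below that median in FFPE, 9 did in FR>FFPE, where Nr1h4 was the exception, and all 10 did in FR>OH. The same counts of 10, 9 and 10 were found with TMM scaling and with total reads as library size. A change of library size moves the genes and their median by nearly the same amount. This agreement was thus fixed in advance and adds no support. The median of the 10 genes minus that of all genes was -0.36 in FR>OH, -0.44 in FR>FFPE and -0.61 in FFPE.

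Slc27a5, the bile acid CoA ligase, was the most regular of them. It was at 637, 721 and 852 CPM (lowest, median and highest) in FR Con, at 523, 573 and 597 CPM in FR>OH Con, at 429, 502 and 541 CPM in FR>FFPE Con and at 321, 348 and 400 CPM in FFPE Con. In PB mice the FR values were 693, 736 and 909 CPM and the FFPE values 361, 375 and 457 CPM. No FFPE or FR>FFPE library reached the lowest FR library, which held for 20.2% and 14.9% of all genes in either direction. On the log2 scale Slc27a5 fell by 0.35 ± 0.05 in FR>OH (adjusted p = 2.52e-07), by 0.62 ± 0.05 in FR>FFPE (adjusted p = 7.69e-14) and by 1.01 ± 0.05 in FFPE (adjusted p = 2.64e-21). Each of the 12 mice was lower in each embedded preparation than in FR, and 11.7%, 6.28% and 8.92% of all genes were lower in every mouse in FFPE, FR>FFPE and FR>OH. It was also lower in FFPE than in FR>FFPE (-0.40, adjusted p = 1.23e-07) and lower in FR>FFPE than in FR>OH (-0.27, adjusted p = 0.000266), a comparison in which Nr1h4 was higher (0.26, adjusted p = 0.00897). Over all genes 29.2% and 22.3% passed in those last 2 comparisons.

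Cyp7b1, the oxysterol 7-alpha-hydroxylase, fell by a similar amount. It was at 751, 788 and 1044 CPM (lowest, median and highest) in FR Con and at 326, 424 and 500 CPM in FFPE Con. In PB mice it was at 470, 726 and 927 CPM in FR and at 292, 328 and 508 CPM in FFPE. Among PB mice, 80B had only 470 CPM in FR, which lay inside the FFPE range. Cyp7b1 fell by 0.48 ± 0.12 in FR>OH (adjusted p = 0.00089), by 0.52 ± 0.12 in FR>FFPE (adjusted p = 0.000241) and by 1.00 ± 0.12 in FFPE (adjusted p = 8.88e-10), each on the log2 scale and in 12 of 12 mice. With the total on genes as library size, Slc27a5 and Cyp7b1 were the members past a 2-fold change in FFPE. Both were lower, where 1.93% of all genes were 2-fold lower. With total reads as library size they fell by 1.96 and 1.95 in FFPE, and with TMM scaling the differences were -1.297 and -1.285. With total reads Cyp8b1, Slc10a1, Baat, Cyp27a1, Cyp7a1 and Abcb11 were past 2-fold too, from -1.455 (Cyp8b1) to -1.037 (Abcb11). The median of all genes was then -0.625.

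Cyp8b1, Slc10a1, Baat and Cyp27a1 were lower in FFPE by less. Cyp8b1 was at 198, 223 and 355 CPM (lowest, median and highest) in FFPE Con, against 267, 302 and 482 CPM in FR Con, and it fell by 0.50 ± 0.13 (log2 ± SE, adjusted p = 0.000814). Slc10a1 was at 275, 323 and 410 CPM in FFPE Con, against 340, 416 and 559 CPM in FR Con. Its groups overlapped, yet it was lower in FFPE in 12 of 12 mice, as were Cyp8b1, Baat and Cyp27a1. Baat was at 168, 180 and 212 CPM in FFPE Con, against 215, 246 and 265 CPM in FR Con. Cyp27a1 was at 280, 310 and 319 CPM, against 322, 339 and 380 CPM. The falls were -0.41 ± 0.09 for Slc10a1 (adjusted p = 8.13e-05), -0.40 ± 0.07 for Baat (adjusted p = 3.53e-06) and -0.18 ± 0.05 for Cyp27a1 (adjusted p = 0.00134). Of these, Cyp8b1 also fell in FR>FFPE (-0.44, adjusted p = 0.00315) and Baat in FR>OH (-0.31, adjusted p = 0.000292), with the total on genes as library size. With TMM scaling all 4 passed as lower in each preparation. Cyp8b1 was then at -0.79, -0.76 and -0.40 in FFPE, FR>FFPE and FR>OH, Slc10a1 at -0.70, -0.50 and -0.34, Baat at -0.68, -0.44 and -0.50, and Cyp27a1 at -0.46, -0.38 and -0.18. Baat was lower in FFPE than in FR>FFPE (-0.27, adjusted p = 0.00357), and so were Cyp7b1 (-0.48, adjusted p = 0.00219) and Abcb11 (-0.14, adjusted p = 0.0163).

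Nr1h4 had the opposite sign to the enzymes with the total on genes as library size. It was at 85.7, 121 and 135 CPM (lowest, median and highest) in FFPE Con and at 102, 126 and 155 CPM in FR>FFPE Con, against 81, 99.5 and 113 CPM in FR Con. No mouse was lower in FFPE or FR>FFPE than in FR, and 34.1% and 37.4% of all genes were higher in every mouse. Nr1h4 rose by 0.31 ± 0.07 in FFPE (adjusted p = 0.000299), but this was 0.02 with TMM scaling and reversed to -0.65 with total reads as library size. It rose by 0.41 ± 0.07 in FR>FFPE (adjusted p = 5.29e-06), against 0.10 with TMM scaling and 0.02 with total reads. In FFPE it lay 0.02 below the median of all genes under the main library size, and in a fit with the L number as a term it no longer passed (0.31, adjusted p = 0.118). The other 6 genes that passed in FFPE did so with that term too.

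Abcb11, Cyp7a1 and Nr0b2 did not pass against FR in any preparation with the total on genes as library size and no pairing. The difference of Abcb11 was -0.08 ± 0.05 in FFPE (adjusted p = 0.102), with 0.06 and 0.04 in FR>FFPE and FR>OH. With TMM scaling Abcb11 passed as lower in all 3, at -0.37, -0.25 and -0.15, and with total reads as library size all 3 of these genes passed as lower in FFPE. That of Cyp7a1 was -0.14 ± 0.28 in FFPE (adjusted p = 0.674) and that of Nr0b2 0.24 ± 0.25 (adjusted p = 0.4). Nr0b2 was at 14.2, 29.4 and 57.6 CPM (lowest, median and highest) in FFPE Con, against 12.2, 26.8 and 43.1 CPM in FR Con, and the groups overlapped. With the mouse as a block all 10 genes passed in FFPE, where 76.5% of all genes did, including Abcb11 (-0.08 ± 0.03, adjusted p = 0.00438), Cyp7a1 (-0.18 ± 0.07, adjusted p = 0.023) and Nr0b2 (0.22 ± 0.05, adjusted p = 0.00026), of which Nr0b2 reversed to -0.71 with total reads as library size and no block. The block gave 8 passing genes in FR>FFPE, 7 in FR>OH, 8 in FFPE vs. FR>FFPE and 6 in FR>FFPE vs. FR>OH, against 4, 3, 4 and 2 without it. Of all genes 73.8%, 65.1%, 43.6% and 40.6% passed with the block.

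**Figure D3:**
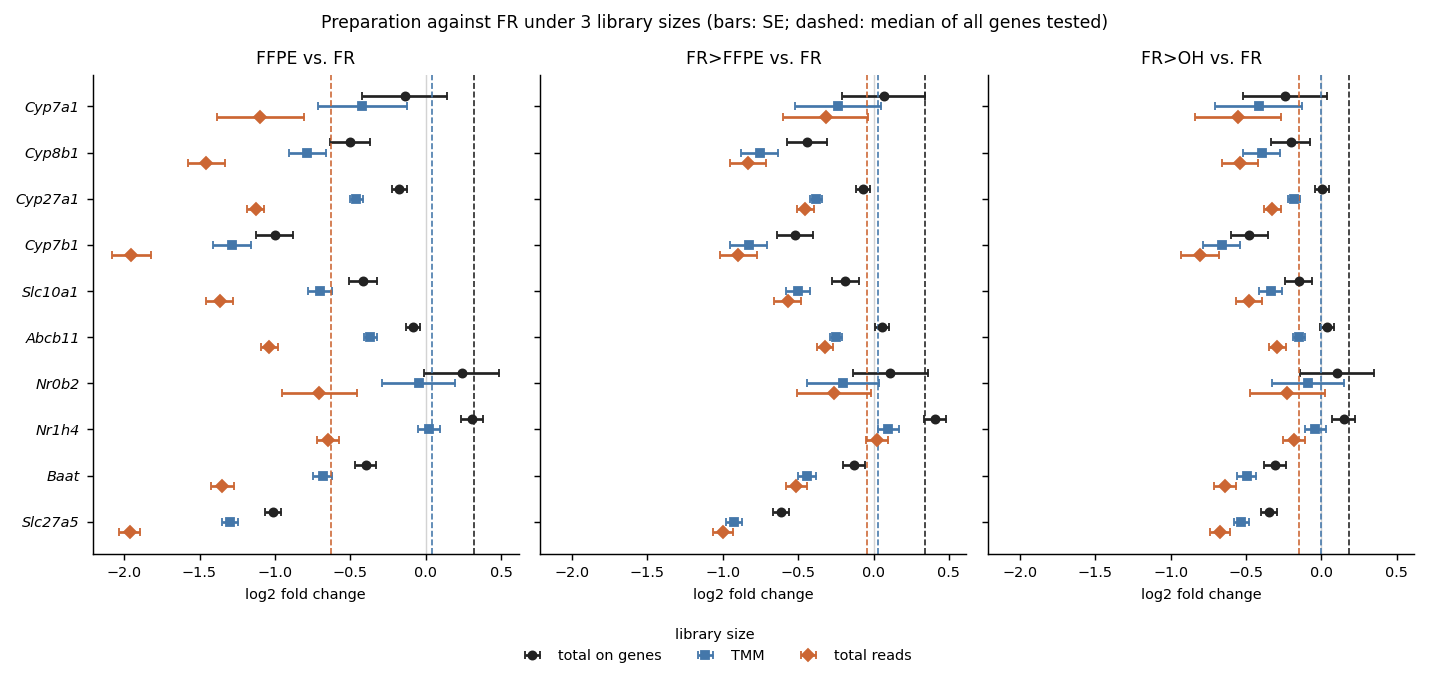
Log2 fold change of each embedded preparation against FR (horizontal axis, bars are SE, n = 12 mice) under 3 library sizes, with the median of all genes tested as a dashed line of the same colour. Under each library size 10 genes lay left of that median in FR>OH and FFPE and 9 did so in FR>FFPE. This had to be nearly so, since a library size moves the genes and their median alike. The medians moved against the zero line, and Nr1h4 changed sign in FFPE with total reads.

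Summed CPM of the hepatocyte markers was 56762 to 86946 in FR Con and 26463 to 38233 in FFPE Con, without overlap, and 4 of the 6 fell in FFPE vs. FR. Kupffer cell markers summed to 140 to 237 CPM in FR Con and 82.9 to 136 CPM in FFPE Con, and endothelial markers to 268 to 342 and 301 to 342 CPM. Periportal markers overlapped, at 2355 to 4060 and 2118 to 3891 CPM. These levels, the share of reads on genes and the depth all moved with the preparation, and their part in the differences of the 10 genes was not tested.

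In the wider list, 16 genes were higher and 13 lower in FFPE vs. FR, against 5 and 17 with TMM scaling and 2 and 29 with total reads as library size. Of all genes 53% were higher and 17.3% lower, against 34.1% and 31.3% with TMM scaling and 6.56% and 70.7% with total reads. Of the 10 tested synthesis genes 7 were lower and 2 higher, against 8 and 0 with TMM scaling, and all 3 conversion genes fell. Of the 10 regulators 9 were higher and 0 lower, but 5 and 2 with TMM scaling and 2 and 6 with total reads. Of 11 transport genes, 5 were higher and 3 lower, but 0 and 4 with TMM scaling. Regulators past a 2-fold change included Mafg, a small Maf repressor of bile acid synthesis genes (1.44 ± 0.08, log2 ± SE, adjusted p = 3.01e-20), and Rxra, the partner of FXR (1.06 ± 0.06, adjusted p = 3.29e-20). With TMM scaling they were 1.15 and 0.78, both past the test, and they were 0.49 and 0.11 with total reads, where Rxra no longer passed (adjusted p = 0.0766). Cyp3a11 (-1.24, adjusted p = 0.000284) and Ugt1a1 (-1.03, adjusted p = 2.06e-14) fell past 2-fold. In FR>FFPE the list gave 13 higher and 5 lower genes, where 56.5% of all genes were higher and 8.92% lower. With TMM scaling the list gave 5 and 13. In FR>OH it gave 12 higher and 8 lower, where 41.7% of all genes were higher and 13.3% lower, against 6 and 12 with TMM scaling.

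Since each mouse gave all 4 preparations, differences between mice could be followed. After each treatment's mean was subtracted, a gene's log2 level in FR was compared with that in each other preparation over 12 mice, which gave 30 relations. Pearson's r was 0.569 to 0.976, and 29 of 30 passed a two-sided permutation test after Benjamini-Hochberg adjustment over the 30, against 22 of 30 for Spearman's rho. The exception was Abcb11 between FR and FR>FFPE (r = 0.569, permutation p = 0.0681, adjusted p = 0.0681). With TMM-scaled CPM, 22 of 30 passed, and the relations of Cyp27a1 and Slc27a5 in all 3 preparations were among those lost. No share over all genes is given for these relations. Libraries of the same mouse deviated together over 5733 genes (median r = 0.746), so lasting differences between mice were not limited to the genes described here. The relations of a gene share its FR values, and FR, FR>OH and FR>FFPE are portions of the same frozen piece.

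Nr0b2 and Cyp7a1 differed most between mice. Nr0b2 was lowest in mouse 8A and highest in mouse 20D in all 4 preparations, at 12.2 and 57.2 CPM in FR and at 14.2 and 71.2 CPM in FFPE, a span of 4.69-fold and 5.01-fold. Its r with FR was 0.936, 0.976 and 0.970 for FFPE, FR>FFPE and FR>OH (permutation adjusted p = 0.000225 in each), with rho of 0.909, 0.902 and 0.937 (permutation adjusted p = 0.00195, 0.00195 and 0.00165). Without the 2 mice farthest from the median in FR, r was 0.897, 0.964 and 0.959. Cyp7a1 was lowest in mouse 21C in all 4 preparations, and mice spanned 5.53-fold in FR, 4.3-fold in FR>OH, 7.36-fold in FR>FFPE and 9.44-fold in FFPE. Its r was 0.937, 0.971 and 0.907 (permutation adjusted p = 0.000382, 0.000225 and 0.000225), its rho 0.867, 0.902 and 0.916 (permutation adjusted p = 0.00272, 0.00172 and 0.00165), and its r without 2 mice 0.884, 0.928 and 0.915.

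Slc10a1 and Cyp8b1 differed less between mice and were still ordered alike. Mouse 90C had the lowest Slc10a1 in all 4 preparations, and r with FR was 0.950, 0.922 and 0.917 (permutation adjusted p = 0.000225, 0.00055 and 0.000225), with rho of 0.965, 0.902 and 0.951 (permutation adjusted p = 0.00165, 0.00165 and 0.0003) and r without 2 mice of 0.921, 0.978 and 0.899. For Cyp8b1 r was 0.964, 0.943 and 0.969 (permutation adjusted p = 0.000225, 0.000707 and 0.000267), rho 0.923, 0.762 and 0.916 (permutation adjusted p = 0.00172, 0.0138 and 0.00218) and r without 2 mice 0.913, 0.895 and 0.924. Abcb11 spanned only 1.27-fold in FR, with r of 0.696, 0.569 and 0.936 (permutation adjusted p = 0.022, 0.0681 and 0.0003). The r of Slc27a5 between FR and FFPE fell from 0.708 (permutation adjusted p = 0.0287) to -0.00725 without 2 mice, so this relation rested on those mice. In all, r without 2 mice was under 0.5 in 4 of the 30.

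**Figure D4:**
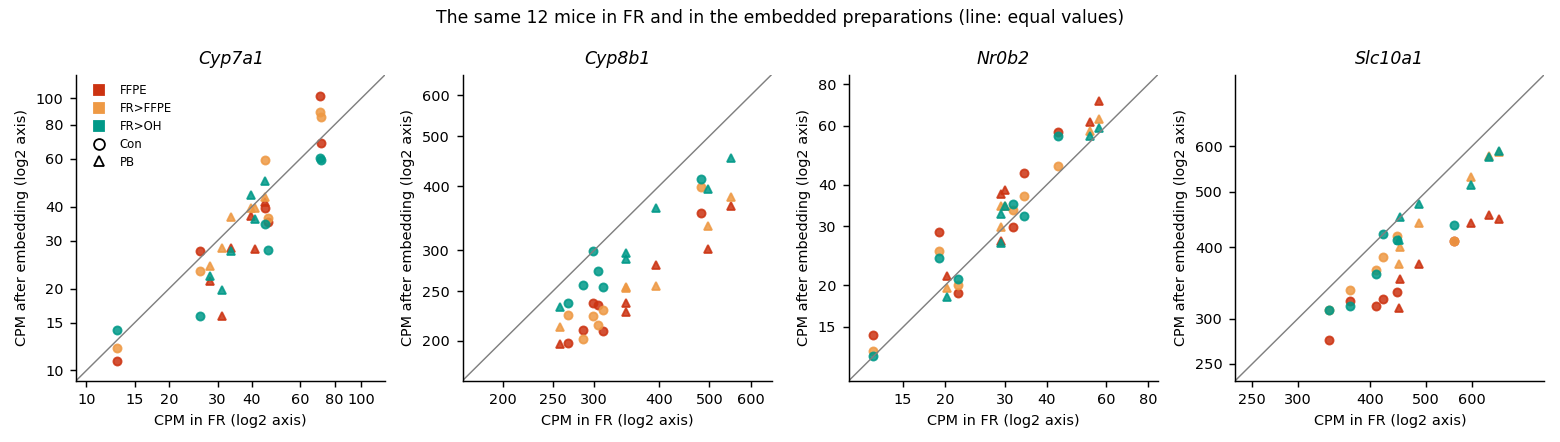
CPM of Cyp7a1, Cyp8b1, Nr0b2 and Slc10a1 in FR (horizontal, log2 axis) against CPM in each embedded preparation of the same mouse (vertical, log2 axis), with circles for Con, triangles for PB and a line of equal values. Mice kept close to their order in all 4 genes, and Cyp8b1 and Slc10a1 lay mostly below the line.

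Relations between members over the mice in FR were tested for 4 pairs that textbook accounts join. Cyp7a1 and Cyp8b1, the committing enzyme and the 12-alpha-hydroxylase, ran opposite to each other. Mouse 21C had the lowest Cyp7a1, 12.9 CPM, and with 482 CPM the highest Cyp8b1 of the Con mice. Mice 82B and 8A had 70.8 and 71.3 CPM of Cyp7a1 and the lowest Cyp8b1 of the Con mice, 267 and 286 CPM. Among PB mice, 18D had the lowest Cyp7a1 (28.1 CPM) and the highest Cyp8b1 (549 CPM), and 80B had the highest Cyp7a1 (44.8 CPM) and the lowest Cyp8b1 (258 CPM). The ratio of Cyp8b1 to Cyp7a1 CPM ran from 3.77 in 82B to 37.4 in 21C among Con mice and from 5.76 in 80B to 19.5 in 18D among PB mice.

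After centring on treatment, Pearson's r was -0.745 over the 12 mice (two-sided permutation p = 1e-05, the smallest the 100000 resamples can give, adjusted p = 4e-05 over 4 pairs) and Spearman's rho was -0.839 (permutation p = 5e-05, adjusted p = 0.0002). Without the 2 mice farthest from the median in Cyp7a1, r was -0.685, and leaving out each mouse in turn gave -0.564 (without 21C) to -0.806 (without 80B). Within Con mice r was -0.920 (exact permutation p = 0.00556, n = 6) and within PB mice it was -0.972 (exact permutation p = 0.00278, n = 6). Among the 8 FR libraries of L number 2 it was -0.860. The slope of log2 Cyp8b1 on log2 Cyp7a1 was -0.30 in Con and -1.50 in PB mice. In FFPE, FR>FFPE and FR>OH, which hold the same mice, r was -0.780, -0.774 and -0.731. How common such an r is among all pairs of genes is not given. Libraries of the same mouse deviated together over 5733 genes (median r = 0.746). The other 3 pairs did not pass. For Nr0b2 r was -0.368 with Cyp7a1 (permutation p = 0.323, adjusted p = 0.323), 0.402 with Cyp8b1 (permutation p = 0.208, adjusted p = 0.296) and 0.401 with Abcb11 (permutation p = 0.222, adjusted p = 0.296), and rho was -0.357, 0.392 and 0.413 (permutation adjusted p = 0.299 in each).

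**Figure D5:**
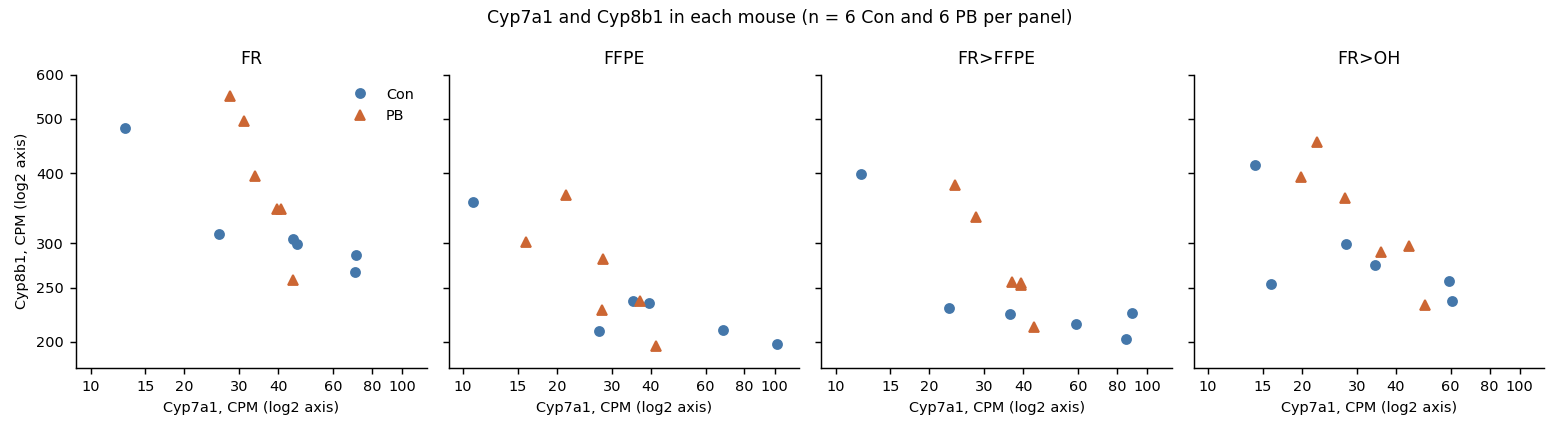
Cyp7a1 CPM (horizontal, log2 axis) against Cyp8b1 CPM (vertical, log2 axis) in each mouse, 1 panel per preparation, with circles for Con and triangles for PB (n = 6 each). In every panel mice with more Cyp7a1 mostly had less Cyp8b1, and the Con mouse at the upper left is 21C.

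Over the 48 libraries, with each group's mean subtracted, the genes most like Cyp7a1 among 9681 genes with a mean of at least 5 CPM were Ifi27l2b (r = 0.805), Ctsz (0.803) and Lsr (0.796). Those most like Cyp8b1 were Ephx2 (0.914), Sec14l2 (0.902) and Abat (0.902), and those most like Nr0b2 were Tgif1 (0.856), Plk2 (0.853) and Frmd4b (0.842). Libraries of 1 mouse share its liver, so these values describe the libraries and carry no test.

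Some of the 10 genes were also measured in male F344 rat liver by TempO-Seq, which counts ligated probe pairs for a gene panel, in 6 libraries each of FR, FR>FFPE and FFPE from vehicle control animals. Cyp7a1, Slc10a1, Abcb11 and Nr1h4 had counts, and the other 6 genes were at 0 or not in the panel. Libraries held 3040915 to 3970187 counts in FR, 2156625 to 3898088 in FR>FFPE and 139475 to 889128 in FFPE. The labels tie no rat to several libraries, and p-values measure the spread between libraries. Titles of the rat libraries, here and in the lung described below, begin with RNA for FR and with FFPE for embedded tissue. Any difference in input thus cannot be told apart from embedding.

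Slc10a1 counts were 3775 to 5197 in rat FR and 46 to 364 in FFPE, or 1110 to 1420 and 288 to 448 CPM. It fell by 3.38 ± 0.25 in FFPE vs. FR (log2 ± SE with TMM scaling, edgeR adjusted p = 2.64e-11), and by 1.8 with the total count as library size. In FR>FFPE it fell by 0.93 ± 0.23 (adjusted p = 0.000891), but by 0.26 (adjusted p = 0.135) with the total count as library size. Background was high here, with 79.7% of 2281 genes passing in FFPE and 71.3% in FR>FFPE. The median of all genes was 0.35 with TMM scaling and 1.97 with the total count in FFPE. Abcb11 fell by 1.28 ± 0.20 in FFPE (adjusted p = 2.05e-06), but this reversed to 0.31 with the total count as library size.

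Cyp7a1 had few rat counts, 1 to 5 per library in FR, 11 to 45 in FR>FFPE and 22 to 44 in FFPE. It was higher in FFPE by 4.83 ± 0.39 (log2 ± SE, adjusted p = 6.95e-11) and in FR>FFPE by 2.5 ± 0.40 (adjusted p = 7.37e-06), where mouse FFPE vs. FR gave -0.14 for the same gene. Nr1h4 was at 30.3 to 42.8 CPM in FR and 85.6 to 151 CPM in FFPE, and its TMM-scaled difference of 0.23 ± 0.25 did not pass in FFPE (adjusted p = 0.393), whereas with the total count as library size it was 1.82 (adjusted p = 1.58e-07). In FR>FFPE Nr1h4 was higher by 0.65 ± 0.23 (adjusted p = 0.0165), and by 1.33 with the total count. In lung of male WKY rats, a tissue that is no site of bile acid synthesis, the same Cyp7a1 probes gave 0 to 6 counts in FR, 45 to 96 in FR>FFPE and 29 to 65 in tissue fixed directly in formalin for 1 year. In AML12, a mouse hepatocyte line in vehicle or 1 of 3 strengths of formalin, Nr1h4 had 106 to 547 counts in each of 12 libraries and the other 9 genes had 0 to 6 counts or were not in the panel.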

How the data were processed

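The 10 genes and the wider lists were chosen with earlier results of these data known. Mouse liver total RNA was sequenced after rRNA depletion with stranded libraries. Per the labels and methods, the authors used CASAVA 1.8.2, STAR 2.5.3a on GRCm38 and Partek, and deposited estimated counts per RefSeq gene by expectation maximization (92% whole) and log2 CPM. The deposited TempO-Seq values were estimated count tables whose counting steps are not given in the sources used here. Here counts were rounded, genes with a geometric mean above 1 count (offset 1e-04) were kept (13370), and CPM used the column total. The main test was edgeR 4.0.16 (R 4.3.3, quasi-likelihood, 8 group means, total over kept genes as library size, no TMM), and each SE was the size of the log2 fold change divided by the square root of its F statistic. Benjamini-Hochberg adjusted p under 0.05 passed, and a fold change of 2 was an alternative. DESeq2 1.42.0, limma 3.58.1, other library sizes and terms for the undefined L number of the library labels were alternatives. Correlations used log2(CPM + 0.5) and 100000 permutations. Replicates within a group were separate mice, so p-values measure the spread between mice. The main fit estimated that spread over all 48 libraries and treated the 4 libraries of a mouse as independent. Each mouse number marks 1 animal in 4 preparations, and same-mouse libraries deviated together in 72 of 72 pairs (r above 0.1, median r = 0.746 over 5733 genes, against -0.144 for different mice). Replicate libraries differed by more than counting noise (smallest chi-square per degree of freedom 6.94). The fits were tested on simulated data. Rat TempO-Seq counts, as deposited, used edgeR with TMM. The genes named from the wider list passed the test with at least a 2-fold change in a PB comparison or in a preparation vs. FR. 1 gene that met this rule is not reported here. The deposited log2 tables of the TempO-Seq libraries were not used here.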

Additional observations from a re-analysis of the deposited data

Results flagged for a closer look

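Within groups of 6, 9 of 92 groups of libraries and genes held a value set apart from the rest (the gap to its nearest neighbour was above the 95% critical value of Dixon's test for 6 samples), where chance gives about 1 in 20. Mouse 21C had the highest Cyp8b1 of the Con mice in all 4 preparations and stood apart in each, at 482 CPM in FR (the others were at 267 to 312), 355 CPM in FFPE, 399 CPM in FR>FFPE and 413 CPM in FR>OH. The 4 values come from 1 liver and are not independent. The same mouse had the lowest Cyp7a1 in each preparation. Mouse 20D had a Slc27a5 level apart from the other PB mice in FR (909 CPM) and FFPE (457 CPM), and mouse 8A had a low Cyp27a1 level in FFPE Con (280 CPM, others 307 to 319). In rat liver FFPE, replicate 83 had the highest Abcb11 (420 CPM) and replicate 79 the lowest Nr1h4 (85.6 CPM).

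Signal appeared in rat lung, which no comparison above used. Median levels in frozen lung were 0.903 CPM for Cyp7a1, 0 for Slc10a1, 0.428 CPM for Abcb11 and 0.237 CPM for Nr1h4, with 1 frozen library holding 12 counts in all. In FR>FFPE lung they were 63.3 CPM for Cyp7a1, 6.72 CPM for Slc10a1, 68 CPM for Abcb11 and 57.4 CPM for Nr1h4. In lung fixed for 1 year they were 48.9 CPM for Cyp7a1, 44.6 CPM for Abcb11 and 48.6 CPM for Nr1h4. Counts per library in FR>FFPE lung were 45 to 96 for Cyp7a1, 5 to 12 for Slc10a1, 39 to 114 for Abcb11 and 43 to 158 for Nr1h4. The differences were not tested.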

How the results depend on the processing

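The L number of the library labels, whose meaning the labels do not give, and treatment cannot be told apart in FR>FFPE. Cyp7a1 and Nr0b2 rest on the fewest counts per kilobase of transcript of the 10 genes. The number of the 10 genes past the test for PB vs. Con was 0 in FR, against 1 with TMM, total reads, DESeq2 and limma, and 0 to 1 with a mouse left out. It was 0 in FFPE, against 1 with DESeq2 and limma and 0 with any mouse left out, and 0 in FR>FFPE, against 1 with total reads and limma and 0 to 1 with a mouse left out. It was 1 in FR>OH, against 0 with the 2-fold rule, the L number as a term or L number 5 alone, 2 with total reads and limma, and 0 to 1 with a mouse left out. The mice whose omission gave a call for Slc10a1 were 20B, 21C and 80B, in FR and in FR>FFPE. Slc10a1 in FR was 0.42 (adjusted p = 0.0426), 0.47 (0.0123) and 0.42 (0.0294) without them, and in FR>FFPE 0.44 (0.0365), 0.42 (0.0354) and 0.45 (0.0198).

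For FFPE vs. FR the 7 became 2 with the 2-fold rule. For FR>FFPE vs. FR the 4 became 0 with the 2-fold rule and 7 with TMM, total reads, DESeq2 and limma. For FR>OH vs. FR the 3 became 0 with the 2-fold rule, 7 with TMM and DESeq2 and 8 with total reads and limma. For FFPE vs. FR>FFPE the 4 became 0 with the 2-fold rule and 9 with total reads and limma, and for FR>FFPE vs. FR>OH the 2 became 0 with the 2-fold rule, 1 with total reads and limma and 4 with DESeq2. Leaving out a mouse gave 7, 4, 3 to 4, 4 to 5 and 2 to 3. In rat liver FR>FFPE the 4 became 1 with the 2-fold rule and 2 with the total count. Calls with TMM were 0 higher and 7 lower in each preparation against FR, and with total reads 0 higher and 10, 7 and 8 lower in FFPE, FR>FFPE and FR>OH.

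The mouse as a replicate block gave 8 calls in FR>FFPE vs. FR, 7 in FR>OH vs. FR, 8 in FFPE vs. FR>FFPE and 6 in FR>FFPE vs. FR>OH. It changed no interaction call of the 10 genes.

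Signs reversed in these cases, which are those where the main or the other fit passed the test. Some values that passed in neither fit changed sign too, such as Nr0b2 in FR>OH (0.102, against -0.089 with TMM). With total reads and with limma, Nr0b2 in FFPE was -0.71 and -0.75, and Nr1h4 was -0.65 and -0.65 in FFPE and -0.185 and -0.18 in FR>OH. With TMM, total reads, DESeq2 and limma, Abcb11 was -0.25, -0.32, -0.25 and -0.33 in FR>FFPE and -0.15, -0.29, -0.15 and -0.29 in FR>OH, and Cyp27a1 was -0.18, -0.33, -0.185 and -0.325 in FR>OH. Abcb11 in FR>FFPE vs. FR>OH was -0.10 with DESeq2, and in rat FFPE 0.31 with the total count. The cause was not tested. Of 1440 values for single genes with a mouse left out, 1425 kept their side of the threshold. Direction was compared only where a fit passed the test, and 0 such values reversed. Values that passed in neither fit moved by less than their SE, whatever their sign. Of 68 values for relations, 61 kept their side of the threshold.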
